A study of Mus musculus with 10 samples.

Results

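Transcript levels of 9 chemokines and of the chemokine receptor Cxcr4 were followed in cultured granule cell precursors of the mouse cerebellum. The members were Ccl2, Ccl3, Ccl4, Ccl5, Cxcl1, Cxcl10, Cxcl12, Cxcl16, Cx3cl1 and Cxcr4, taken by gene symbol. They were 10 of the 18193 genes named by the array annotation, and every one of their 18 probe sets was read. Expression had been measured on 10 Affymetrix whole-genome mouse arrays, 1 per sample. The groups were Bmi1 knockout cultures given sonic hedgehog (Shh; 2 arrays, replicates 8 and 10), wild type cultures given Shh (2 arrays, replicates 7 and 9), Bmi1 knockout cultures left untreated (3 arrays, replicates 2, 4 and 6) and wild type cultures left untreated (3 arrays, replicates 1, 3 and 5). The pups were 5 to 7 days old, the culture medium contained KCl (20 mM) and fetal calf serum (10%), the first culture step lasted 24 hours, and Shh was given for 24 hours at a labelled dose of 3 mg/ml. The total time in culture of the untreated samples, the number of animals behind a sample and the deleted part of Bmi1 are not stated, so that p-values measure the spread between these samples, which may be technical. The treatment note of wild type untreated replicate 3 names Shh as an optional step, and the array was used as untreated by its title. All untreated arrays bear replicate numbers from 1 to 6 and all Shh arrays numbers from 7 to 10. An effect of Shh therefore cannot be told apart from one of replicate order or of total time in culture. Rises and falls with Shh below describe these groups of arrays.

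Chemokines are small secreted proteins that attract and position cells by binding receptors coupled to G proteins. In the developing cerebellum, Cxcl12 made by the meninges binds Cxcr4 on granule cell precursors, holds them in the external granule layer and adds to their proliferative response to Shh. Most of the CC chemokines and the Cxcl10 and Cxcl16 ligands are known as products of activated microglia, astrocytes or vascular cells, and several are targets of NF-kappaB or of interferon signalling.

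The granule lineage markers Atoh1 and Zic1 were detected on all arrays, with Atoh1 signals of 1848 to 2043 in knockout and 2036 to 2256 in wild type cultures with Shh, against 1431 to 1935.5 in knockout and 1462 to 1730 in wild type cultures left untreated. All arrays shared a trimmed mean of 500, but median signals ran from 66.8 to 72.3 with Shh and from 84.8 to 91.2 without. Centring the arrays on their medians instead moved the median Shh difference of all genes to 0.29 in knockout and 0.33 in wild type cultures on the log2 scale, against -0.01 for both as scaled by the authors, so every Shh difference below is relative to the authors' scaling. Signal of the 18S ribosomal RNA control was 6301 in replicate 6 (knockout untreated) and 2030 in replicate 1 (wild type untreated), and 228 to 649 in the other 8 samples. Bmi1 itself read 3416 to 3904 in knockout and 3673 to 4515 in wild type samples by 1 probe set and 1587 to 2219 in knockout and 1731 to 2555 in wild type samples by the other, which does not check the genotype without knowledge of the deleted part. In such bulk cultures, fewer cells of a type and less RNA per cell cannot be told apart.

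The first question was how the chemokines differed between Shh-treated and untreated cultures of each genotype. Ccl5 was strongly higher with Shh in both genotypes, from untreated signals at background, Cxcl16 rose 2.01-fold in knockout and 2.87-fold in wild type cultures, and no other member passed the test in either genotype by its main probe set. The knockout call of Cxcl16 was lost with no filter on dim genes and without replicate 6, 8 or 10. By a second probe set Cxcl12 fell in both, though in knockout cultures not after quantile normalization or median centring. Of several probe sets of a gene, the one with the highest mean entered the limma fit, and a difference was called at a Benjamini-Hochberg adjusted p under 0.05 over the 11397 genes whose mean log2 signal reached 6.26. Of the 10 members 9 reached that level, and Cx3cl1, with a mean of 5.99, did not. Called members were 2 of 9 (22.2%) in knockout cultures, where 28.1% of all tested genes were called, and 2 of 9 in wild type cultures, where 33.8% were. Counting only genes that were higher with Shh, the shares of all tested genes were 11.1% in knockout and 14% in wild type cultures. Ccl5, Cxcl10 and Cxcl16 reached the level needed for testing only through their Shh arrays (mean log2 of the 6 untreated arrays 4.39, 6.16 and 5.86), so these counts are given as a description. With no filter on dim genes 1 of 10 members was called in knockout cultures (Ccl5) and 2 of 10 in wild type cultures (Ccl5 and Cxcl16). The share of all genes called in that fit is not given here, so these counts describe the members only. The arrays of the 2 groups did not overlap for 3 of 9 members in knockout cultures and 5 of 9 in wild type cultures, all of them higher with Shh, as were 26.1% of all tested genes in knockout and 27.3% in wild type cultures.

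**Figure D1:**
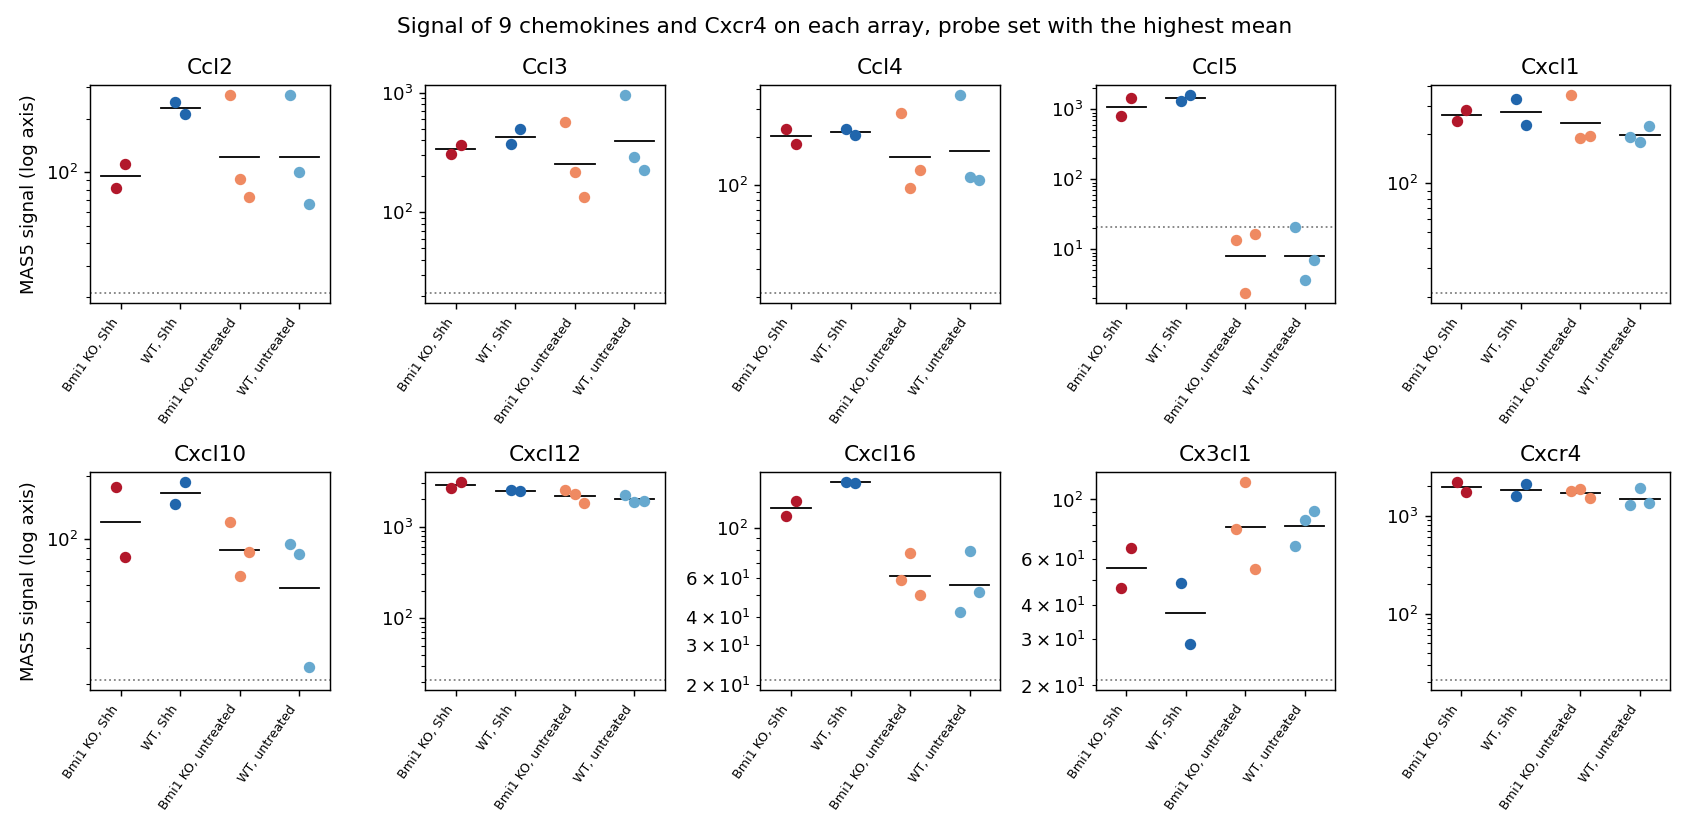
MAS5 signal (log axis, range set for each gene) of the 10 members on each array, by the probe set with the highest mean. Points are arrays, black lines are geometric means of the deposited signals, and the dotted line is the floor of 20.9 below which values were set equal for testing. Ccl5 lies at 813 to 1613 on all 4 Shh arrays and at 2.34 to 21.1 on all 6 untreated arrays.

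Ccl5 (RANTES; chr11:83525778-83530518, GRCm38.p6), a ligand that attracts T cells and monocytes, read 813 and 1432 in knockout cultures with Shh, against 13.6, 2.34 and 16.8 in untreated knockout cultures. In wild type cultures it read 1336.5 and 1613 with Shh, against 21.1, 3.70 and 7.02 without. All 4 Shh arrays lay above all 6 untreated arrays. All 3 untreated knockout arrays and 2 of the 3 untreated wild type arrays lay below the floor of 20.9, so the fold is a lower bound: at least 51.6-fold higher in knockout cultures (log2 5.69, SE 0.20, adjusted p = 2.82e-07) and at least 70.0-fold higher in wild type cultures (log2 6.13, adjusted p = 2.22e-07, SE 0.20). With no filter on dim genes the adjusted p was 3.585e-05 in knockout and 3.24e-05 in wild type cultures. Of 5 analysed T cell genes 0 reached the level for testing, and 2 of them, Cd3d and Cd3g, lay at or below the floor on every array. The summed signal of the 5 was 90.0 to 117 in knockout and 107 to 148 in wild type cultures with Shh. Without Shh it was 45.0 to 62.9 in knockout and 47.5 to 90.0 in wild type cultures. With no filter on dim genes 1 of the 5 was called higher with Shh in each genotype, a description without the share of all genes beside it. The part of T cells in the Ccl5 values was not tested.

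Cxcl16 (chr11:70454389-70459984), a ligand made as a membrane-bound and a shed form that binds Cxcr6, read 113 and 132 in knockout cultures with Shh, against 58.4, 77.1 and 50.1 without. In wild type cultures it read 161 and 158 with Shh, against 42.1, 78.6 and 51.8 without. The Shh arrays of each genotype lay above all of its untreated arrays. The rise was 2.01-fold in knockout cultures (log2 1.01, SE 0.25, adjusted p = 0.0179) and 2.87-fold in wild type cultures (log2 1.52, adjusted p = 0.00196, SE 0.25). The knockout call was lost with no filter on dim genes (adjusted p = 0.053) and without replicate 6 (0.05382), 8 (0.057) or 10 (0.106). The second Cxcl16 probe set, which did not reach the level for testing by itself, gave log2 1.53 in knockout and 1.34 in wild type cultures, with adjusted p of 0.0658 in knockout and 0.0846 in wild type cultures over all probe sets.

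Cxcl10 (IP-10; chr5:92346638-92348889), a ligand of Cxcr3 and a textbook interferon target, read 176 and 81.9 in knockout cultures with Shh, against 120, 66.1 and 86.2 without. In wild type cultures it read 146 and 187 with Shh, against 94.5, 84.4 and 24.1 without. The knockout groups overlapped and the wild type groups did not. The log2 difference was 0.45 in knockout (adjusted p = 0.600) and 1.52 in wild type cultures (SE 0.57, adjusted p = 0.0668), and neither passed. The wild type difference passed with log2(signal + 50) in place of the floor (adjusted p = 0.03465), with quantile normalization (0.0419), with median centring (0.0179) and without replicate 1 (0.0421), 4 of 19 alternatives in all. With no filter on dim genes, where its low untreated level does not decide whether it is tested, it did not pass (adjusted p = 0.157), nor did it over all probe sets with quantile normalization (0.123) or median centring (0.083), and over the alternatives the adjusted p reached 0.2465 (without replicate 9).

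Because Cxcl10 and Cxcl1 are known as targets of the interferon and NF-kappaB pathways, and Cxcl12 and Cxcr4 form the ligand and receptor pair best known in this tissue, the 250 bases before the annotated start of each are shown, written on the gene's strand from RefSeq (GRCm38.p6). Capitals mark matches on either strand to GAAANNGAA, a core of the interferon-stimulated response element, or to GGNNNTTCC, a form of the kappaB site. The letters of both motifs were chosen after these sequences were seen, and were then shortened by 1 base, so that the counts below test nothing. Cxcl10 lies on the minus strand at chr5:92348890-92349139, Cxcl1 on the plus strand at chr5:90890995-90891244, Cxcl12 on the plus strand at chr6:117168285-117168534 and Cxcr4 on the minus strand at chr1:128592300-128592549.
Cxcl10: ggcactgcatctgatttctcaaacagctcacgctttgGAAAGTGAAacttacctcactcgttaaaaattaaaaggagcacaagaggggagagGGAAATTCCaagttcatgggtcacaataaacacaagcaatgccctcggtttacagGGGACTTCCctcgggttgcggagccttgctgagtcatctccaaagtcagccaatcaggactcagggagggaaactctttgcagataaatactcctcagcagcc
Cxcl1: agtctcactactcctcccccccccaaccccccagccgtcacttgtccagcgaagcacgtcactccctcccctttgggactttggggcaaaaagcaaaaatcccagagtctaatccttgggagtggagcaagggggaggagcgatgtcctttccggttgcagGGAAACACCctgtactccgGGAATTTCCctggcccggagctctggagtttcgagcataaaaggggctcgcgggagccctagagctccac
Cxcl12: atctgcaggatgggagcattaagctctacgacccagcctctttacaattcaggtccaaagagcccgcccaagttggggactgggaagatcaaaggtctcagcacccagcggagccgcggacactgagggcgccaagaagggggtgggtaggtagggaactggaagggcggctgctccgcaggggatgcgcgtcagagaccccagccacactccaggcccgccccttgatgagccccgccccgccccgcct
Cxcr4: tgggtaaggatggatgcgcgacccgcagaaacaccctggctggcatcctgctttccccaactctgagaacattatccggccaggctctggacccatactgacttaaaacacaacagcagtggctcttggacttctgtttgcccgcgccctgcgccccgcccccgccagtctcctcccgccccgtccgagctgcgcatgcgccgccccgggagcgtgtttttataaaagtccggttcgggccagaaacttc

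The Cxcl10 window held GAAANNGAA once, 205 to 213 bases before the start, and GGNNNTTCC at 150 to 158 bases, where it matches on both strands, and at 95 to 103 bases before the start. The Cxcl1 window held GGNNNTTCC at 62 to 70 bases, on both strands, and at 81 to 89 bases before the start. Neither motif was in the Cxcl12 and Cxcr4 windows, which says only that these letters are not there. Ccl3 and Cx3cl1 also had a window, with GAAANNGAA in that of Ccl3 and GGNNNTTCC in that of Cx3cl1. Of all 32851 windows 7.13% held the first motif and 15.7% the second, and 2.98% and 4.65% held the longer forms. Ccl2, Ccl4, Ccl5 and Cxcl16 are named only. A match describes the letters and is not a measurement of binding.

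Ccl2, Ccl3 and Ccl4, ligands that attract monocytes and are made by activated microglia, did not pass in either genotype, and their untreated arrays were widely spread. Ccl2 (chr11:82035577-82037452) read 81.3 and 111 in knockout cultures with Shh, against 272, 91.6 and 72.4 without, and 249 and 212 in wild type cultures with Shh, against 270.5, 100.1 and 66.7 without. The log2 difference was -0.36 in knockout (95% interval -1.79 to 1.08) and 0.92 in wild type cultures (-0.52 to 2.35). Untreated replicates 1 and 2 read highest in their groups for all 3 genes.

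Ccl3 (MIP-1 alpha; chr11:83647843-83649378) read 307 and 367 in knockout cultures with Shh, against 568, 218 and 135 without, and 374 and 494 in wild type cultures with Shh, against 959, 287 and 225 without. Ccl4 (MIP-1 beta; chr11:83648624-83664683), whose annotated span overlaps that of Ccl3, read 225 and 181 in knockout cultures with Shh, against 281, 96.1 and 124 without. In wild type cultures Ccl4 read 223 and 204 with Shh, against 367, 111 and 107 without. The untreated arrays of each genotype lay on both sides of its Shh arrays for both genes. The log2 differences were 0.39 (Ccl3) and 0.43 (Ccl4) in knockout and 0.12 (Ccl3) and 0.38 (Ccl4) in wild type cultures, with adjusted p from 0.613 to 0.909.

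Cxcl1 (chr5:90891245-90893121), a neutrophil attractant that binds Cxcr2, had 3 probe sets. By the one with the highest mean it read 243 and 283 in knockout cultures with Shh, against 350, 190 and 194 without, and 332 and 230 in wild type cultures with Shh, against 194, 180 and 224 without. The groups overlapped in knockout cultures and did not in wild type cultures, where the log2 difference was 0.48 (95% interval -0.13 to 1.08, adjusted p = 0.203). In wild type cultures the 2 other probe sets gave 1.57 (adjusted p = 0.120) and 1.40 (0.152), and in knockout cultures 0.26 and 0.09. With the mean of all 3 probe sets the wild type difference passed (log2 1.15, adjusted p = 0.0387), and it also passed with median centring (0.82, adjusted p = 0.0234).

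Cxcl12 (SDF-1; chr6:117168535-117181368), the ligand of Cxcr4, gave opposite directions by its probe sets. By the brightest it read 2638 and 3110 in knockout cultures with Shh, against 2504, 2284 and 1820 without, and 2498 and 2433 in wild type cultures with Shh, against 2238, 1880.5 and 1893 without. The Shh arrays of each genotype were the higher ones, but the differences of 0.39 in knockout (SE 0.15, adjusted p = 0.0831) and 0.30 in wild type cultures (SE 0.15, adjusted p = 0.153) did not pass. With median centring both passed (0.68 in knockout, adjusted p = 0.00932, and 0.65 in wild type cultures, adjusted p = 0.00903), and the wild type difference also passed without replicates 1 and 6, the arrays with the highest 18S signal (0.39, adjusted p = 0.0477). By the second it read 109 and 149 in knockout cultures with Shh, against 222, 194 and 229 without, and 91.9 and 96.8 in wild type cultures with Shh, against 228, 199 and 217 without. On this probe set all 4 Shh arrays lay below all 6 untreated arrays. It fell by 0.75 on the log2 scale in knockout (SE 0.14, adjusted p = 0.0185) and by 1.18 in wild type cultures (SE 0.14, adjusted p = 0.00285, both over all probe sets with 1 gene symbol). The knockout fall was not called after quantile normalization (adjusted p = 0.0783) or median centring (0.06025). The remaining probe set, dimmer and partly at the floor, gave 0.63 in knockout and -0.37 in wild type cultures and was not called. Which part of the transcript each probe set reads was not analysed here.

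Cxcr4 (chr1:128588199-128592299), the receptor through which Cxcl12 acts on granule cell precursors, read 2227 and 1764 in knockout cultures with Shh, against 1783, 1877 and 1509 without, and 1602 and 2122 in wild type cultures with Shh, against 1278, 1916 and 1361 without. The groups overlapped in both genotypes. The log2 difference was 0.21 in knockout (95% interval -0.25 to 0.67) and 0.30 in wild type cultures (-0.16 to 0.77), and with median centring the wild type difference passed (0.65, adjusted p = 0.0200).

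Cx3cl1 (fractalkine; chr8:94772180-94782427), a membrane-tethered ligand of neurons that binds Cx3cr1 on microglia, was below the level for testing by all 4 probe sets. By the brightest it read 46.3 and 65.9 in knockout cultures with Shh, against 77.2, 117 and 54.9 without, and 48.7 and 28.6 in wild type cultures with Shh, against 66.9, 83.8 and 90.6 without. The wild type Shh arrays were the lower ones, while the knockout groups overlapped. With no filter on dim genes, the log2 differences were -0.52 in knockout (adjusted p = 0.431) and -1.10 in wild type cultures (adjusted p = 0.0825). The next brightest probe set gave 0.33 in knockout and -0.78 in wild type cultures, with overlapping groups in both. With Shh it read 72.4 and 89.7 in knockout against 52.7 and 9.63 (below the floor) in wild type cultures. That log2 difference of 1.28 was not called (adjusted p = 0.709 by limma over all probe sets).

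**Figure D2:**
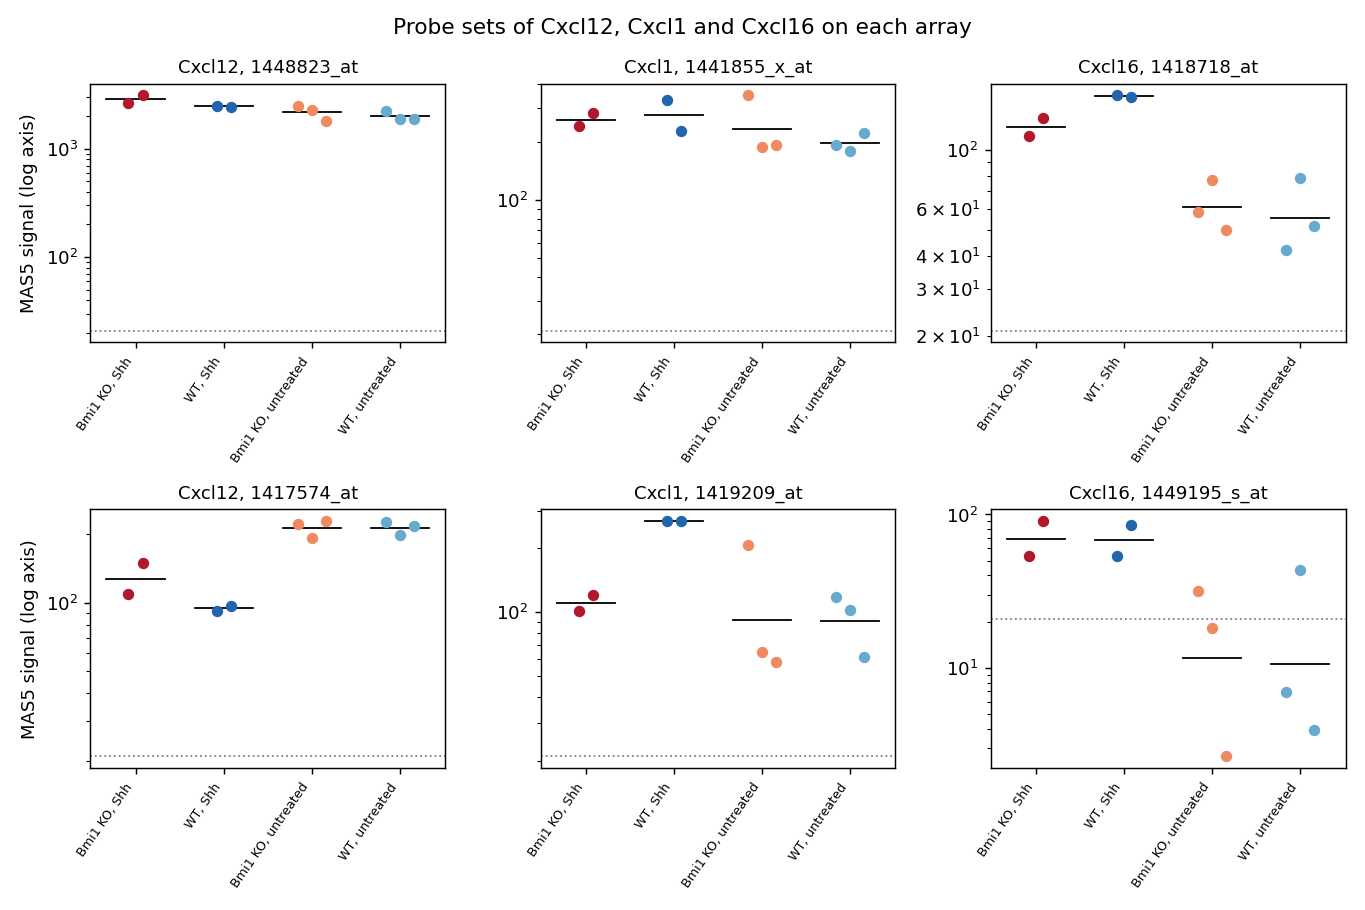
MAS5 signal (log axis, range set for each panel) of 2 probe sets each of Cxcl12, Cxcl1 and Cxcl16 on each array. Points are arrays, black lines geometric means, and the dotted line the floor. The 2 Cxcl12 probe sets run in opposite directions with Shh.

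The second question was whether loss of Bmi1 changed these genes. With Shh limma called 0 of 9 members, where 0.728% of all tested genes were called, and 0 had an unadjusted p under 0.05, where 9.76% of all genes had. In untreated cultures it called 0 of 9, where 0.377% of all tested genes were called, and 0 had an unadjusted p under 0.05, where 8.69% of all genes had. The lowest adjusted p was 0.575 with Shh and 0.844 without. Log2 differences ran from -1.27 (Ccl2) to 0.22 (Cxcl12) with Shh and from -0.63 (Ccl3) to 0.61 (Cxcl10) without, and with 2 or 3 arrays a group the intervals were wide. Arrays of the 2 genotypes did not overlap for 4 of 9 members with Shh (39.1% of all tested genes) and for 0 of 9 without (13.4%).

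Deviations of consecutive replicate numbers, 1 wild type and 1 knockout array each, went together, so the genotypes were also compared within these 5 pairs. Ccl3 was lower in the knockout array of every pair, with log2 differences of -0.28 and -0.43 with Shh and of -0.76, -0.40 and -0.74 without. With the pairs as a block the adjusted p of Ccl3 was 0.311 with Shh (SE 0.12) and 0.114 without (SE 0.10), and neither passed. It was the 1 of 9 members with the same sign in all 5 pairs, where 15.6% of all tested genes had one.

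With Shh, Ccl2 read 81.3 and 111 in knockout cultures, against 249 and 212 in wild type cultures, a log2 difference of -1.27 (95% interval -2.85 to 0.30, adjusted p = 0.626 by limma). Both knockout arrays were lower. The 2 Cxcl1 probe sets that were not the brightest read 102 and 121 and 143 and 163 in knockout cultures, against 268 and 269 and 312 and 358 in wild type cultures, with log2 differences of -1.27 and -1.13 and adjusted p of 0.727 and 0.759 by limma. The brightest Cxcl1 probe set gave -0.08. The second Cxcl12 probe set read 109 and 149 in knockout against 91.9 and 96.8 in wild type cultures with Shh (log2 0.44, SE 0.15, adjusted p = 0.5275). Ccl5 was at 813 and 1432 in knockout and 1336.5 and 1613 in wild type cultures, groups that overlapped (log2 -0.44, 95% interval -0.94 to 0.05). Cxcr4 differed between genotypes by 0.10 (-0.40 to 0.61) with Shh and by 0.20 (-0.21 to 0.61) without.

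Markers of other cells differed between the genotypes as well, and their part in the member values was not tested. All 18 tested microglia and macrophage genes had log2 differences below 0 in knockout cultures, from -1.28 to -0.10 with Shh (median -0.37) and from -0.88 to -0.17 without (median -0.45). Of them C1qa, a complement gene of microglia, was called with Shh (-1.25, adjusted p = 0.0111), and 0 were called without. The summed signal of the 19 analysed microglia genes was 5591 to 7700 in knockout against 8713 to 9157 in wild type cultures with Shh. Without Shh it was 8835 to 9909 in knockout against 10308 to 14909 in wild type cultures. All 14 tested interferon targets were below 0 with Shh (-1.18 to -0.09, median -0.54). Of them Irgm1 was called (-0.96, adjusted p = 0.0374 by limma), though not after quantile normalization or with no filter on dim genes. Higher in knockout cultures with Shh were the glial genes Gdf10 (1.09, adjusted p = 0.0371) and Sparcl1 (0.67, adjusted p = 0.0379) and the oligodendrocyte lineage genes Olig1 (0.94, adjusted p = 0.0371), Sox10 (1.28, adjusted p = 0.0239) and Cspg4 (1.15, adjusted p = 0.0043). These were 2 of 12 tested glial and 3 of 8 tested oligodendrocyte lineage genes, where 0.728% of all tested genes were called. Log2 differences ran from 0.08 to 1.18 in the glial list and from -0.26 to 1.34 in the oligodendrocyte list. In the oligodendrocyte list 1 gene, Pdgfra, was below 0. It read 3584 to 3652 in knockout against 4255 to 4429 in wild type cultures with Shh and was not called. Quantile normalization ended the calls of Gdf10, Sparcl1 and Olig1, median centring those of Sparcl1 and Olig1, and leaving out replicates 1 and 6 those of all but Cspg4. With no filter on dim genes 1 of 12 analysed glial and 1 of 9 analysed oligodendrocyte lineage genes was called higher in knockout cultures with Shh.

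Whether the Shh response itself differed between genotypes was tested as an interaction, and 0 of 9 members were called (0.00877% of all tested genes), each with an adjusted p of 0.9998. The difference between the responses (knockout minus wild type) was -0.44 for Ccl5 (95% interval -1.08 to 0.20), -0.52 for Cxcl16 (-1.33 to 0.30), -1.07 for Cxcl10 (-2.88 to 0.73) and -1.27 for Ccl2 (-3.30 to 0.76). These intervals span no difference and also sizeable ones, and do not show that the responses were alike.

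**Figure D3:**
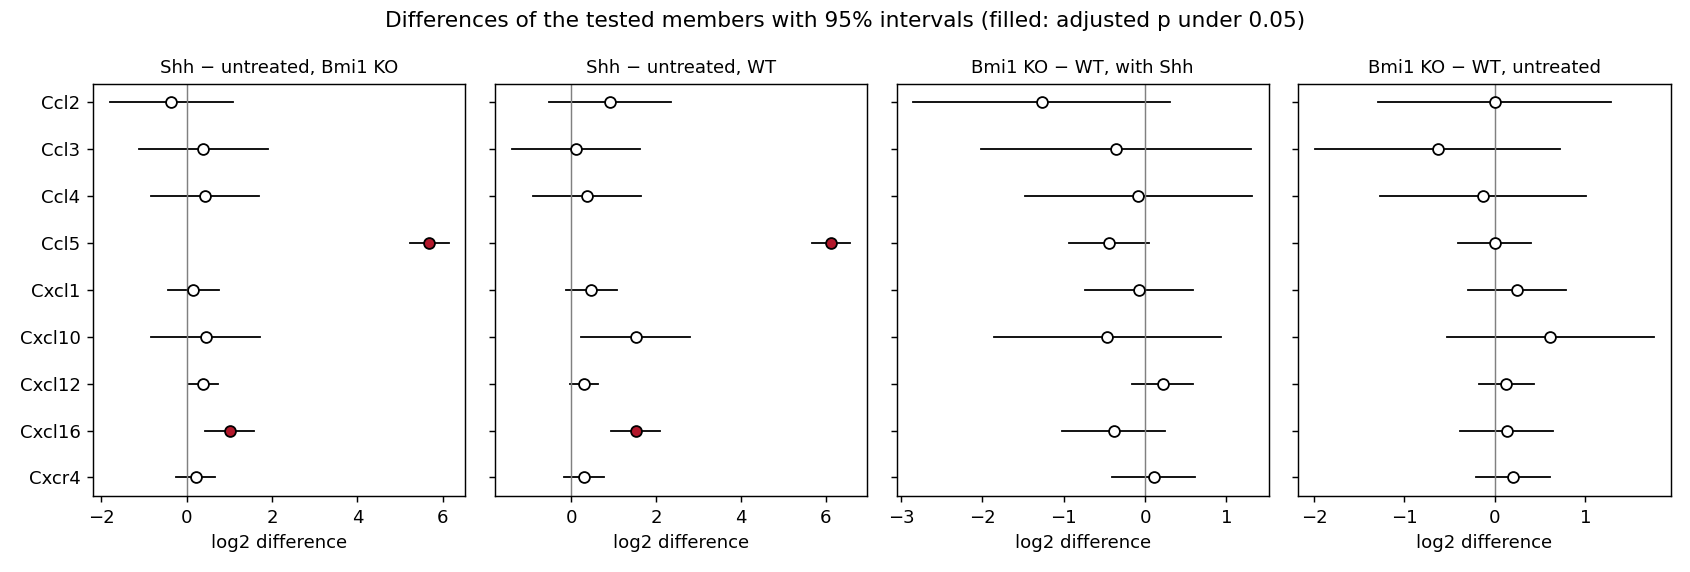
Log2 differences (points) with 95% intervals of the limma fit (lines) for the 9 tested members in 4 comparisons, KO being Bmi1 knockout and WT wild type. Filled points had an adjusted p under 0.05: Ccl5 and Cxcl16 with Shh in both genotypes, and no member in either genotype comparison. With no filter on dim genes Cxcl16 was not called in knockout cultures (adjusted p = 0.053).

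Other chemokine ligands moved in both directions with Shh. Of 26 analysed ligands outside the set, 9 were tested. The called share was 66.7% in knockout, against 28.1% of all tested genes, and 55.6% in wild type cultures, against 33.8%. Ccl9 and Ccl25 rose in both genotypes, and Ccl6, Ccl27a and Pf4 fell in both, while Cxcl14 fell in knockout cultures (log2 -0.92, adjusted p = 0.00418) and had -0.40 in wild type cultures (adjusted p = 0.101). Ccl9, a monocyte attractant known from mouse, read 893 to 934 in knockout cultures with Shh against 160 to 287 without (log2 2.12, adjusted p = 0.00065), and 911 to 1091 in wild type cultures with Shh against 283 to 480 without (1.54, adjusted p = 0.00262). Ccl6 read 28.3 to 43.9 in knockout cultures with Shh against 170 to 213 without (-2.45, adjusted p = 0.00225), and 16.4 to 67.9 in wild type cultures with Shh against 302 to 325 without (-3.04, adjusted p = 0.00057). The list median was -0.49 in knockout and -0.36 in wild type cultures, against -0.01 for all tested genes in both. Median centring ended the calls of Ccl27a in both genotypes and of Pf4 in wild type cultures, where quantile normalization also ended that of Pf4, and without replicates 1 and 6 Ccl25 was not called in knockout cultures and Ccl27a in neither genotype.

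Of the 20 analysed chemokine receptors other than Cxcr4, 6 were tested. The called share was 33.3% in knockout, against 28.1% of all tested genes, and 66.7% in wild type cultures, against 33.8%. Cx3cr1, the microglial receptor of Cx3cl1, fell in both genotypes, to 83.8 to 110 in knockout cultures with Shh against 284 to 403 without (log2 -1.83, adjusted p = 0.000997), and to 164 to 173 in wild type cultures with Shh against 488 to 905 without (-1.89, adjusted p = 0.000647). The scavenger Ackr2 also fell in both (-1.86 in knockout and -2.84 in wild type cultures). Ackr3, which removes Cxcl12, read 187 to 252 in knockout cultures with Shh against 345 to 466 without (-0.82, adjusted p = 0.0806), and fell to 191 to 194 in wild type cultures with Shh against 267 to 636 without (-1.08, adjusted p = 0.0260). Ccrl2, a receptor that binds without signalling, fell in wild type cultures (-1.35, adjusted p = 0.0351) and had -1.05 in knockout cultures (adjusted p = 0.0958), and for both genes the difference between genotypes was not called (interaction adjusted p = 0.9998). The wild type calls of Ackr3 and Ccrl2 were lost with quantile normalization and with median centring. The receptors Ccr1, Cxcr2, Cxcr3 and Cxcr6 were below the level for testing, and no array read above 96.3 for any of them.

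Of 21 tested genes of Cxcr4 signalling and chemokine processing, 3 rose and 5 fell in knockout cultures, and 2 rose and 5 fell in wild type cultures. The called shares were 38.1% in knockout cultures, against 28.1% of all tested genes, and 33.3% in wild type cultures, against 33.8%, and with shares this near the background the list's count is no result about it. Itch, a ubiquitin ligase of Cxcr4, rose in both (0.90 in knockout and 0.78 in wild type cultures). Arrb1, an arrestin, fell in both (-0.60 in knockout and -0.67 in wild type cultures), as did Mmp14, a membrane protease that can act on chemokines (-1.22 in knockout and -1.04 in wild type cultures), and Rgs16, an inhibitor of G protein signalling (-2.50 in knockout and -1.85 in wild type cultures). Median centring ended the Arrb1 calls, and leaving out replicates 1 and 6 ended those of Itch, in both genotypes. The wild type call of Itch was also lost with no filter on dim genes. The list median was -0.04 in knockout and 0.04 in wild type cultures.

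Of 14 tested genes known as targets of interferon, 12 rose in both genotypes, and 12 rose in each with replicates 1 and 6 left out, with quantile normalization and with median centring. Of all tested genes 11.1% rose in knockout and 14% in wild type cultures. Of the 12, Usp18, Oasl2, Bst2, Irf7, Gbp3, Igtp and Xaf1 reached the level for testing only through their Shh arrays, so the count is a description, while the other 5 (Irf9, Stat2, Rsad2, Ddx58 and Irgm1) reached it in the untreated arrays as well. With no filter on dim genes 16 of the 20 analysed interferon targets rose in knockout and 17 of 20 in wild type cultures. The share of all genes that rose in that fit is not given here, so these counts are a description too. The median log2 difference of all 14 was 2.11 in knockout and 2.58 in wild type cultures. Usp18, which removes the ubiquitin-like Isg15, read 1509 to 1554 in knockout cultures with Shh against 3.73 to 10.8 without, all below the floor, and 2722 to 2764 in wild type cultures with Shh against 16.5 to 37.3 without. Irf7, a transcription factor of the interferon response, rose by 2.56 in knockout and 3.47 in wild type cultures. Ifit2 fell in knockout cultures (-0.80, adjusted p = 0.0260 by limma) and had -0.34 in wild type cultures, which did not pass. Its knockout call was lost with quantile normalization, with median centring, with no filter on dim genes and without replicates 1 and 6. Of the 12 that rose in both, 11 had a promoter window and 6 of these (54.5%) held GAAANNGAA, while 3 (27.3%) held GGNNNTTCC. Of all 32851 windows 7.13% held the first motif and 15.7% the second. That background counts windows, while a gene was counted here if any of its windows matched. The 12 genes were chosen by their rise and the motif letters after member sequences were seen, so these shares test nothing.

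**Figure D4:**
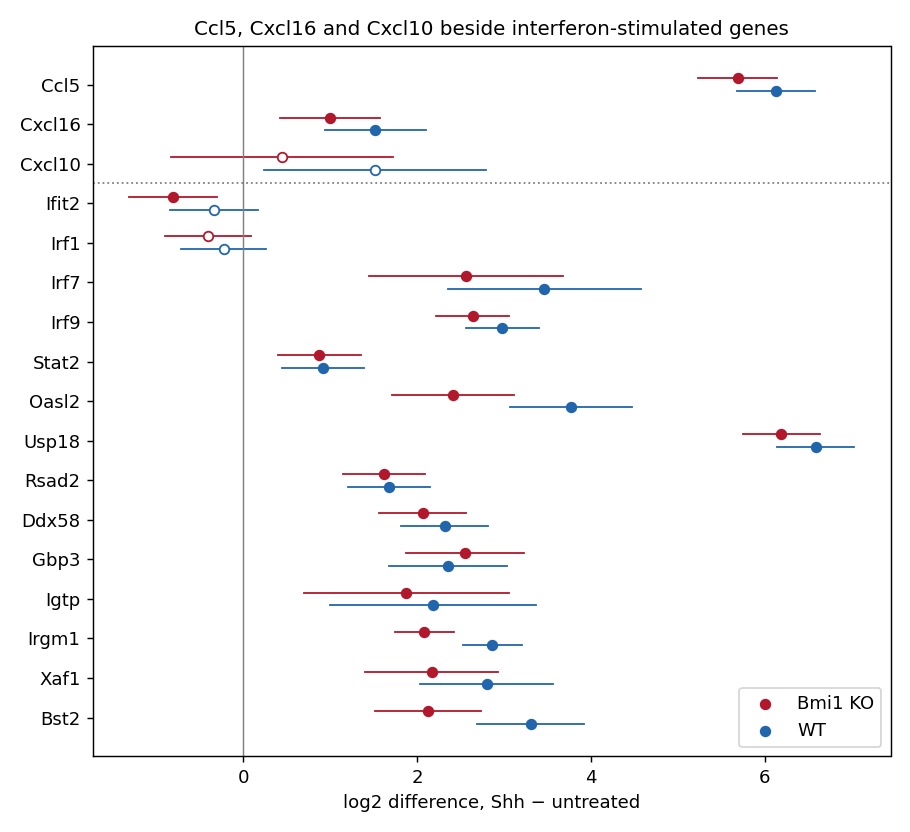
Log2 differences with Shh (points) and 95% intervals (lines) for Ccl5, Cxcl16 and Cxcl10 and for the 14 tested interferon-stimulated genes, with Bmi1 knockout (KO) above wild type (WT) in each row. Filled points had an adjusted p under 0.05: 12 interferon-stimulated genes in each genotype on the higher side, and Ifit2 in knockout cultures on the lower side. Ccl5 and Cxcl16 are filled in both genotypes, with the knockout call of Cxcl16 lost with no filter on dim genes.

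Of 16 tested NF-kappaB and inflammatory cytokine genes, 3 rose (Tnfaip2, Sod2 and Cd14) and 2 fell (Nfkbia and Vcam1) in both genotypes. The called share was 31.2% in both, against 28.1% of all tested genes in knockout and 33.8% in wild type cultures. Tnfaip2 reached the level for testing only through its Shh arrays, so the count is a description. Nfkbia, the inhibitor of NF-kappaB that is itself a target of it, read 3315 to 3396 in knockout cultures with Shh against 5024 to 6013 without (log2 -0.70, adjusted p = 0.00887), and 3696 to 4021 in wild type cultures with Shh against 4880 to 7084 without (-0.59, adjusted p = 0.0164). With median centring Nfkbia was called in neither genotype. Vcam1 lost its wild type call with quantile normalization and with median centring, and Sod2 its knockout call with quantile normalization and without replicates 1 and 6, and Tnfaip2 lost its wild type call without replicates 1 and 6.

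Markers of other cell types moved with Shh as well, and their part in the chemokine results was not tested. Beside the counts below, 1260 of all 11397 tested genes rose and 1938 fell in knockout cultures. In wild type cultures 1592 rose and 2260 fell. Of 18 tested microglia and macrophage genes, 6 rose and 8 fell in knockout cultures, and 5 rose and 8 fell in wild type cultures. Lyz2, Adgre1, Ptprc, Itgb2 and Fcer1g were among those that rose, while Csf1r, Cx3cr1, P2ry12 and the C1q genes fell. Adgre1 lost its wild type call without replicates 1 and 6. With no filter on dim genes 4 rose and 8 fell in knockout cultures, and 3 rose and 8 fell in wild type cultures. The summed signal of the 19 analysed genes was 5591 to 7700 in knockout and 8713 to 9157 in wild type cultures with Shh, against 8835 to 9909 in knockout and 10308 to 14909 in wild type cultures without. The defining marker Aif1 was not called and read 48.2 to 69.4 in knockout and 130 to 142 in wild type cultures with Shh, against 89.0 to 133 in knockout and 86.9 to 213 in wild type cultures without. All 7 tested endothelial genes fell in both genotypes. The summed signal of the 11 analysed ones was 481 to 563 in knockout and 624 to 743 in wild type cultures with Shh. Without Shh it was 6732 to 6912 in knockout and 5879 to 8150 in wild type cultures. Of 4 tested pericyte genes 3 fell, and of 12 tested astrocyte and Bergmann glia genes 10 fell, in both genotypes. The defining astrocyte marker Gfap rose in knockout cultures, to 2651 to 2847 with Shh against 1494 to 2124 without. That call was lost with quantile normalization and with no filter on dim genes. In wild type cultures Gfap was not called and read 2465 to 2539.5 with Shh against 2089 to 2579 without. Of 7 tested meninges and fibroblast genes, Dcn, Col1a2, Col3a1 and Bgn fell in both genotypes. In knockout cultures Islr also fell and Ptgds rose. Quantile normalization ended the wild type call of Dcn, median centring the knockout call of Islr, and leaving out replicates 1 and 6 that of Ptgds. Ptgds was also not called with no filter on dim genes. Of 8 tested oligodendrocyte lineage genes, Pdgfra rose in both genotypes, while 4 fell in knockout and 6 in wild type cultures. The knockout call of Pdgfra was lost with no filter on dim genes. Among granule cell precursor genes, Gli1, Ptch1, Mycn and Ccnd1 rose in both genotypes and the other 12 of 16 were not called. Without replicates 1 and 6 Mycn was called in neither genotype. With quantile normalization 5 genes rose in each, and with median centring 8 rose in knockout and 9 in wild type cultures. Over all genes, 1404 rose in knockout and 1726 in wild type cultures with quantile normalization. With median centring 4361 rose in knockout and 5184 in wild type cultures, so the added calls are no result about this list.

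By the root mean square distance of centred log2 values over the 10 arrays, Usp18 (0.41), Acod1 (0.51) and Cybb (1.08) followed Ccl5 most closely, whose own SD over the arrays was 3.06. Cxcl16 lay nearest to Fancb (0.20), Kif20b (0.22) and Kif18a (0.23), with an SD of 0.72. Ccl2 lay nearest to Tlr2 (0.37), Ccl3 to Atf3 (0.36), and Ccl4 to Sertad1 (0.31) and Il1b (0.34). Ccl3 came next for Ccl2 (0.42), and Ccl4 next for Ccl3 (0.39). Cxcl1 lay nearest to Ino80d (0.15), with an SD of 0.34. Cxcl10 lay nearest to Abhd18 (0.41). Cxcl12, with Traf2 at 0.08, and Cxcr4, with Cfap298 at 0.13, varied little over the arrays (SD 0.25 for Cxcl12 and 0.26 for Cxcr4). These distances are a description over arrays that share 2 treatments.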

How the data were processed

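The authors deposited 1 value per probe set and array, a MAS5 signal intensity made with GCOS 1.2 per the submitters' processing notes; the files show each array scaled to a trimmed mean of 500. From these, values below the 25th percentile of all values (20.9) were raised to it, log2 was taken, and the probe set with the highest mean stood for a gene. Of 45101 probe sets 34945 had 1 gene symbol, 932 had several and 9160 had none. Genes with a mean log2 of at least 6.26, the median of all probe sets, were tested with limma 3.58.1 in R 4.3.3 (1 mean per group, 10 arrays, 5 comparisons, two-sided, Benjamini-Hochberg over 11397 genes). Other probe sets of a member were tested in a fit over all probe sets with 1 symbol. The members and gene lists were chosen with earlier results of these data known. Named genes are all members, listed genes called in any comparison, the members' receptors, defining cell markers, and the 3 tested genes nearest to each member.

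The fit was tested on simulated data with known changes. Replicates run 1 to 10 across groups; deviations of consecutive numbers correlated at 0.28, 0.12 and 0.22 in untreated and 0.16 in Shh samples, against -0.27 to 0.05 for other pairs. Consecutive numbers were therefore treated as pairs in an alternative fit. Alternatives were another floor, log2(signal + 50), quantile normalization, median centring, no filter, the mean of all probe sets, only the arrays compared, the pairs as a block and each array left out. Leaving out replicates 1 and 6 together was chosen after seeing the data. Promoter windows come from RefSeq (GRCm38.p6). The number of arrays limits the precision.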

Additional observations from a re-analysis of the deposited data

How the results depend on the processing

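Knockout minus wild type, untreated, called 43 genes, and 66 with log2(signal + 50), 23 with the replicate block, 12 without replicates 1 and 6 and 19 to 50 with 1 replicate left out. Knockout minus wild type with Shh called 83, and 51 with quantile normalization, 3 from its own arrays alone (4 arrays), 50 with the replicate block, 52 without replicates 1 and 6 and 29 to 94 with 1 replicate left out. Shh minus untreated called 3198 genes in knockout and 3852 in wild type cultures, and with 1 replicate left out 1891 to 3198 in knockout and 2380 to 3749 in wild type cultures. With median centring it called 5483 genes in knockout (79.5% of them higher, against 39.4%) and 6425 in wild type cultures (80.7% higher, against 41.3%). The interaction called 1 gene, 3 with the lower floor, 8 with no filter, 0 to 2 with 1 replicate left out, and 0 with log2(signal + 50), quantile normalization, median centring, the mean of all probe sets, the replicate block or without replicates 1 and 6.

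Members called with Shh were 2 in each genotype. With the lower floor 1 was called in each, as Ccl5 then fell below the filter. In knockout cultures 1 was called with no filter (Cxcl16 lost) and 1 with the mean of all probe sets (Cxcl16 below the filter), and 1 to 2 with 1 replicate left out. In wild type cultures 6 were called with median centring and 2 to 3 with 1 replicate left out. The replicate block left 2 members called with Shh in each genotype and 0 in the other comparisons, so it changed no member's call.

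Directions turned in these cases, none of them called except for the second Cxcl12 probe set; the cause was not tested. Knockout minus wild type untreated, without replicates 1 and 6, was 0.95 for Ccl2, 0.47 for Ccl3 and 0.59 for Ccl4; Ccl5 was 0.010 with log2(signal + 50), and Cxcl16 was -0.15 by its other probe set. Leaving out replicates 1 and 6 by construction leaves replicates 2 and 5 without their partners, and within the 5 pairs Ccl3 was lower in knockout throughout. With Shh, Cxcl16 was 0.041 by its other probe set. Shh minus untreated for Cxcl12 was -0.75 in knockout by the second probe set, and in wild type cultures -1.18 by the second, -0.37 by the dim one and -0.42 with the mean of all. Ccl3 in knockout cultures was -0.070 without replicates 1 and 6. In the interaction, without replicates 1 and 6, Ccl3 was -0.83, Ccl4 -0.67 and Cxcl12 -0.13; Ccl4 was -0.010 with median centring, and Cxcl16 was 0.19 by its other probe set.

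With 1 replicate left out, knockout minus wild type untreated ran from -0.58 to 0.57 for Ccl2, -1.21 to 0.0057 for Ccl3, -0.58 to 0.46 for Ccl4, -0.048 to 0.39 for Cxcl1, -0.017 to 0.97 for Cxcl10 and -0.068 to 0.38 for Cxcl16. With Shh it ran from -0.24 to 0.075 for Ccl4, -0.34 to 0.19 for Cxcl1, -1.02 to 0.091 for Cxcl10 and -0.10 to 0.31 for Cxcr4. Shh minus untreated ran from -0.73 to 0.22 for Ccl2, -0.070 to 0.97 for Ccl3 and -0.11 to 1.00 for Cxcl10 in knockout cultures, and from -0.29 to 0.76 for Ccl3 in wild type cultures. The interaction ran from -0.36 to 0.85 for Ccl3, -0.54 to 0.50 for Ccl4, -0.043 to 0.21 for Cxcl12 and -0.30 to 0.11 for Cxcr4. Ccl5 gave no value with the lower floor and Cxcl16 none with the mean of all probe sets. Where a left-out array leaves 1 sample in a group, that sample is assumed to vary like the other groups.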
